A study of Homo sapiens with 6 samples.

Results

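miR-210 is one hairpin whose mature arms, miR-210-3p and miR-210-5p, are 2 of the 2656 mature miRNAs in the count table of KPL4, a human breast adenocarcinoma cell line. Both arms were found by name. One group held 3 small RNA libraries of ERβ knockout KPL4 cells that carry exogenous, transfected estrogen receptor β (ERβ), called ERβ 1, 2 and 3 here. The other held 3 libraries of ERβ knockout cells without the receptor, called S1, S2 and 3 after the endings of their column names. Both groups lack the endogenous receptor, and no knockout cells with an empty vector and no unedited cells were analysed here, so the receptor and anything else that separates the groups cannot be told apart. The labels describe ordinary culture at 37°C in 5% CO2 with no hypoxia or drug treatment, and they do not say whether the replicates came from separate cultures, so p-values cover the spread between these samples, which may be technical.

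miR-210 is the best-known miRNA of low oxygen. Hypoxia-inducible factor (HIF), whose α subunit is degraded when oxygen is plentiful, binds near the start of the host gene MIR210HG and raises transcription, and the level of miR-210-3p is widely used as a readout of hypoxia in breast tumours. The 3p arm is the guide strand and represses, among others, ISCU and COX10 of mitochondrial respiration, GPD1L, EFNA3 and E2F3; the 5p arm is the passenger strand, which is normally discarded. In prostate cancer cells ERβ has been described as lowering HIF-1α, which puts miR-210 among the miRNAs to look up in cells with and without ERβ. HIF protein and the targets of miR-210 were not measured by this assay.

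The reference sequences below show where both arms lie in the hairpin (RefSeq, GRCh38.p14, minus strand of chromosome 11). Capitals in the arms mark the seed, bases 2 to 8, which pairs with target messages; capitals in the hairpin mark the 5p arm and then the 3p arm.
miR-210-3p: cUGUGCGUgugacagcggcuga
miR-210-5p: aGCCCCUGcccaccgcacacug
MIR210 hairpin: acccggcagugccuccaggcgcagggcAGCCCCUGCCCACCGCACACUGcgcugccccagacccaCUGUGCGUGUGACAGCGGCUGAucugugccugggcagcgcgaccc
The hairpin spans 110 bases (chr11:568089-568198), with miR-210-3p at chr11:568112-568133 and miR-210-5p at chr11:568150-568171. It lies within MIR210HG, a long non-coding RNA gene (chr11:565660-568457 in GENCODE release 29), in an intron of all 4 annotated transcripts. Neither seed is shared by another of the 2370 mature miRNA names in the RefSeq table. G and C make up 72.7% of the hairpin, more than in 94.3% of the 1562 hairpins there (median 52.1%).

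The stretch of host promoter shown next holds the core of a HIF response element, marked by capitals (chr11:568613-568637, GRCh38.p14, minus strand).
MIR210HG promoter: ccccgggcagACGTGcagaaaagaa
On either strand, ACGTG occurred once in the window from 250 bases before to 50 after the RefSeq start of MIR210HG, and the other form of the core, GCGTG, also once; 21.4% and 36.5% of 35116 promoter windows of the same length held these letters. The motifs do not overlap. A match describes the letters only, and binding was not measured here.

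miR-210-3p did not differ between the groups beyond the spread between libraries. With exogenous ERβ it had 4278, 6068 and 5592 counts in libraries 1, 2 and 3, and in knockout cells 3941, 5019 and 3437 counts in S1, S2 and 3. Scaled to a common library size with TMM factors, as CPM (counts at a common library size), this was 386, 406 and 378 CPM with ERβ and 358, 415 and 349.6 CPM in knockout cells. The ranges overlapped: the highest value of all 6 was that of knockout library S2, while knockout libraries S1 and 3 lay below every ERβ library. The means were 389.7 ± 14.3 CPM with ERβ and 374 ± 35.4 CPM in knockout cells (SD, n = 3 each).

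The fitted log2 fold change of miR-210-3p, ERβ over knockout, was 0.06 ± 0.09 (SE), with an adjusted p of 0.691 by edgeR's quasi-likelihood test with Benjamini-Hochberg adjustment over 783 tested miRNAs. Its 95% interval ran from -0.14 to 0.26, a ratio between 0.907 and 1.20. In the same fit 181 miRNAs passed at an adjusted p under 0.05, 23.1% of those tested, and 594 had a smaller p than miR-210-3p. Its change was small for this table: 11.6% of tested miRNAs had a fold change nearer to 0, and the median over all of them was -0.01.

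**Figure D1:**
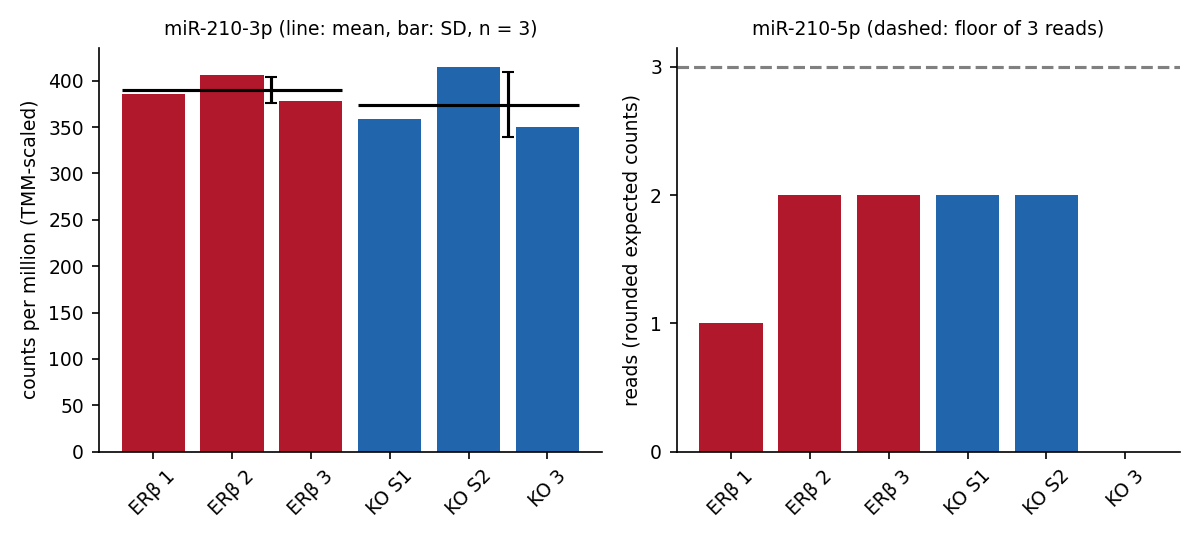
Left, TMM-scaled CPM of miR-210-3p in each library, ERβ in red and knockout (KO) in blue, with the group mean as a line and the SD as an error bar (n = 3 each). Right, reads of miR-210-5p in the same libraries with the floor of 3 reads dashed; the 3p ranges overlap through knockout library S2 at 415 CPM, and the 5p arm has 0 to 2 reads everywhere.

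Knockout library S2 decided whether miR-210-3p passed. Without it the log2 fold change was 0.14 ± 0.05 and miR-210-3p was called higher with ERβ (edgeR quasi-likelihood test, adjusted p = 0.0377), as were 15.2% of the 800 miRNAs tested there; 34.9% were called in either direction. The remaining knockout libraries held 358 and 349.6 CPM, below the 378 to 406 CPM of the ERβ libraries. S2 stood apart from its group in the table as a whole: the chi-square of the counts, divided by its degrees of freedom, was 307 and 331 for the pairs that include S2, and 12.2 to 21.2 for the other pairs within groups. It was the highest or the lowest of the 6 libraries for 453 of 783 tested miRNAs (57.9%), against 187 to 252 for each other library. What sets S2 apart was not tested.

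The coefficient of variation of miR-210-3p was 3.66% over the ERβ libraries and 9.46% over the knockout libraries, and 1.73% over knockout libraries S1 and 3 alone. Counting error by itself gives 1.28 to 1.71% for a single library. Total counts were 10288415 to 14296902 with ERβ and 10619000 to 12228519 in knockout cells, and miR-210-3p made up 0.0394 to 0.0424% of them with ERβ and 0.0324 to 0.0410% in knockout cells.

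The sign of the difference did not turn under other library-size factors, while its size moved with all miRNAs alike. With library totals in place of TMM factors the log2 fold change of miR-210-3p was 0.21 ± 0.10 (edgeR quasi-likelihood test, adjusted p = 0.165), and that scaling moved the median of all tested miRNAs up by 0.15. Upper-quartile factors gave 0.17 ± 0.09 (adjusted p = 0.224) and moved the median by 0.11. Relative to the median of all tested miRNAs miR-210-3p stood at 0.07 under each of TMM, upper-quartile factors and library totals. Such factors shift all miRNAs nearly alike, so this distance is no separate check.

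**Figure D2:**
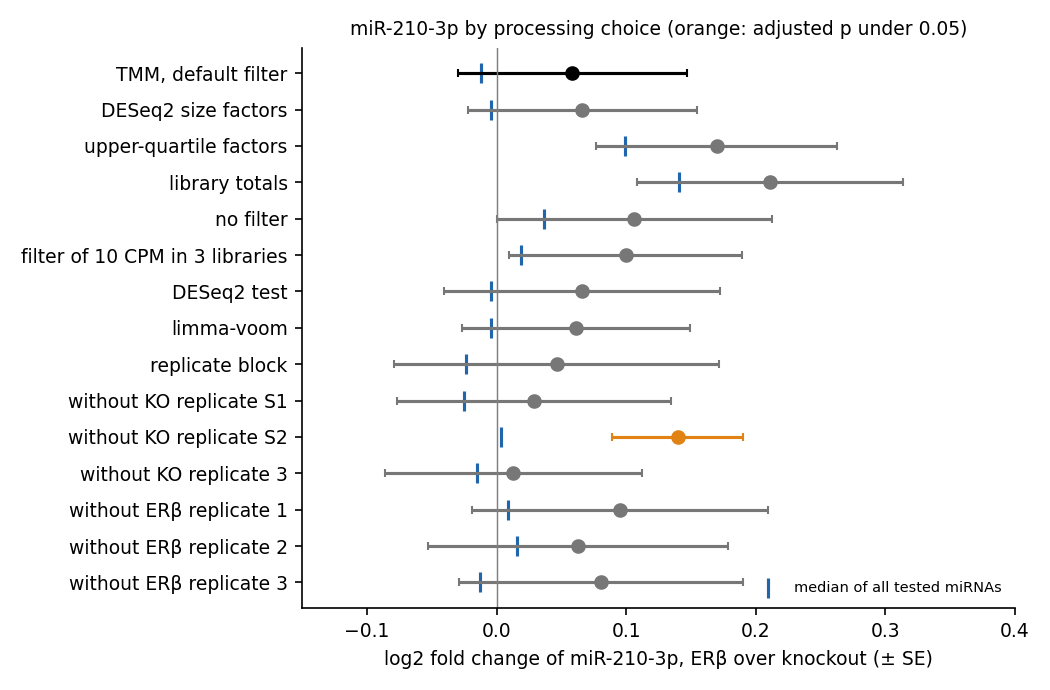
Log2 fold change of miR-210-3p, ERβ over knockout, under each processing choice, with its standard error; blue ticks are the median of all tested miRNAs under that choice. All 15 estimates lie between 0.01 and 0.21, and the one without knockout library S2, in orange, has an adjusted p under 0.05.

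Measured against miRNAs that are commonly used as normalizers in PCR assays, miR-210-3p was higher in every ERβ library than in any knockout library, but the answer depended on the normalizer. Its ratio to the geometric mean of miR-16-5p, miR-191-5p, miR-93-5p and miR-423-3p was 0.0549, 0.0580 and 0.0555 with ERβ and 0.0487, 0.0464 and 0.0509 in knockout cells. The difference was 0.21 on the log2 scale, with an exact two-sided permutation p of 0.10, the smallest that 3 against 3 allows. Against single normalizers it was 0.07 with miR-16-5p, 0.51 with miR-191-5p, 0.42 with miR-423-3p and -0.17 with miR-93-5p. The normalizers themselves were not level between the groups: miR-191-5p was lower with ERβ (log2 fold change -0.47 ± 0.12, edgeR quasi-likelihood test, adjusted p = 0.0238), miR-423-3p was at -0.36 ± 0.12 and miR-93-5p at 0.21 ± 0.13, neither of which passed, and miR-16-5p at -0.00 ± 0.06.

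miR-210-5p was at the limit of detection in both groups. It had 1, 2 and 2 counts with ERβ and 2, 2 and 0 counts in knockout libraries S1, S2 and 3, so no library exceeded the 3 counts that a count of 0 still allows, and no fold change is given. It did not pass the filter for testing. Summed over libraries this was 5 counts against 15938 of the 3p arm with ERβ, and 4 against 12397 in knockout cells. All 12 of these values are whole numbers in the deposited table, where 6.33 to 7.27% of the entries of a library are not.

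The 5p share of miR-210 counts, a ratio within each library that needs no scaling, was 0.0234, 0.0329 and 0.0358% with ERβ and 0.0507, 0.0398 and 0% in knockout libraries S1, S2 and 3. The value of 0% rests on 0 of 3437 counts, which by the limit of 3 counts allows a share of up to 0.0873%. The exact (Clopper-Pearson) 95% intervals of single libraries reached from 0 to at most 0.183%, so the ranges overlapped widely. For knockout library 3 that interval reached 0.107%. The means were 0.0307 ± 0.00649% with ERβ and 0.0302 ± 0.0267% in knockout cells (SD, n = 3 each; exact two-sided permutation p = 1, smallest possible 0.10). A shift in arm use was not detectable at this depth. Intervals and limits cover counting error only, since the sources used here do not say whether molecular identifiers were collapsed.

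Among pairs of arms matched by exact name, few were so one-sided as miR-210. Of 207 such pairs with at least 1000 counts together over all 6 libraries, miR-210 had the 11th lowest share of the lesser arm, 0.0318%. The median pair had 2.93%. The 3p arm was the more abundant one in 84 of the 207. miRNAs with an arm named only by gene copy, such as miR-24 and miR-103a, formed no pair and are outside this ranking. Some of them were more one-sided: miR-103a-3p had 189796 counts in knockout library S1, against 4 of miR-103a-1-5p and 14 of miR-103a-2-5p.

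**Figure D3:**
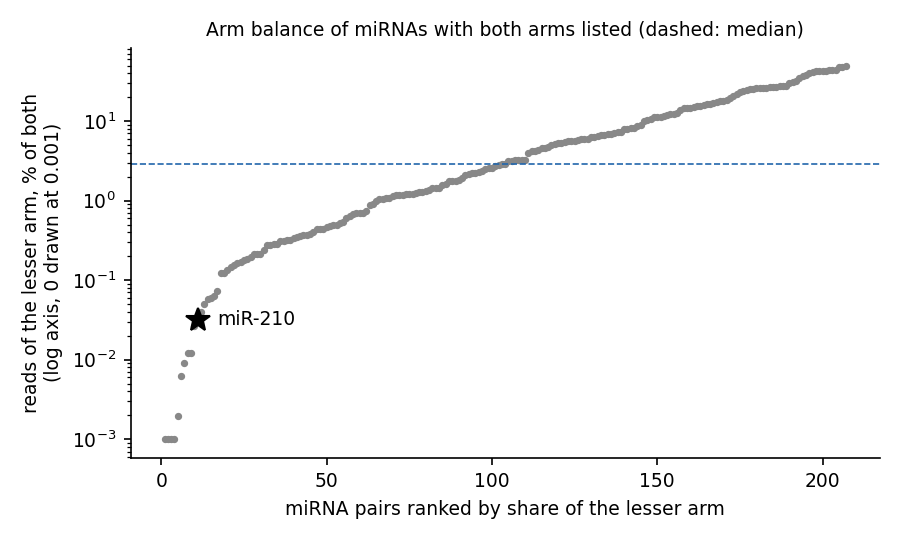
Share of counts from the lesser arm for the 207 pairs of arms matched by exact name with at least 1000 counts over the 6 libraries. Pairs are ranked, on a log axis with 0 drawn at 0.001%. miR-210, the star, lies at 0.0318% and the dashed line is the median of 2.93%.

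By level miR-210-3p ranked 117th to 123rd of 2656 listed miRNAs with ERβ and 120th to 130th in knockout cells. By mean level it was 122nd of the 783 tested. Over all 6 libraries it averaged 382 ± 25.6 CPM (SD). The miRNAs just above it were miR-335-3p, at 390.5 CPM, miR-378a-3p, at 392 CPM, and miR-361-3p, at 398 CPM, and those just below were miR-195-5p, at 382 CPM, miR-99b-3p, at 377 CPM, and miR-196a-3p, at 375 CPM. None of these lies farther from miR-210-3p than its own SD over the libraries, and with lengths of 21 to 23 bases no correction for length was made. Libraries also capture miRNAs with unequal efficiency, so this is an order of reads.

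Of these neighbours, 1 on either side differed between the groups. miR-195-5p, a miR-15/16 family member that restrains cyclins, had 254, 248 and 259.6 CPM with ERβ and 523, 491 and 515 CPM in knockout cells, a log2 fold change of -1.0 ± 0.07. miR-335-3p, from an intron of MEST, had 479.7, 476 and 483 CPM with ERβ and 321, 230.1 and 353 CPM in knockout cells (0.67 ± 0.14). Both passed the edgeR quasi-likelihood test (adjusted p = 3.74e-05 and 0.00786), and their groups did not overlap, as held for 39.8% of tested miRNAs. The other 4 neighbours did not pass, with log2 fold changes of -0.16 to 0.11.

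Among 389 other miRNAs averaging at least 10 CPM, miR-200a-5p followed miR-210-3p most closely over the 6 libraries, with a Pearson correlation of log2 CPM of 0.979. miR-345-5p (0.965), miR-1301-3p (0.954), miR-378a-5p (0.941) and miR-93-5p (0.936) came next. All 5 were highest in knockout library S2, as miR-210-3p was, and none passed the test between the groups. Without S2 their correlations with miR-210-3p, over 5 libraries, were 0.927 to 0.966. For example, miR-200a-5p had 188, 191 and 184 CPM with ERβ and 171, 201 and 164 CPM in knockout libraries S1, S2 and 3. These values describe 6 libraries that share 2 groups and the depth scaling. The 5 were picked by their correlation over these same libraries. Their shared peak in S2, their test results and their correlations without S2 are therefore no separate evidence.

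The other miRNAs listed here as rising in hypoxic cells were lower with ERβ or did not pass. The list was drawn up with earlier results of these data known and may not cover all such miRNAs. Its counts hold for its members only. Of 16 listed, 14 were abundant enough to test; 0 were higher with ERβ and 6 lower (42.9%), against 9.83% higher and 13.3% lower over all tested miRNAs by edgeR's quasi-likelihood test, and the list's median log2 fold change was -0.25 against -0.01. In this fit no member was higher at an unadjusted p under 0.05 either, and DESeq2 and limma-voom also called 0 higher. At that unadjusted threshold edgeR gave 1 higher and 5 lower with upper-quartile factors. With library totals it gave 3 higher and 4 lower. Of the 14 tested, 12 were more abundant than miR-210-3p, so the background of all tested miRNAs is not matched for level. Among 399 miRNAs with at least 10 CPM in 3 libraries, edgeR called 62 higher and 66 lower, and the list again gave 0 and 6. miR-23a-3p, miR-23b-3p, miR-24-3p and miR-27a-3p come from paralogous clusters and several members are miR-181 arms, so members are not independent. miR-424-5p, which targets the HIF-degrading ligase scaffold CUL2, fell to 536, 555 and 589 CPM with ERβ, against 1256, 1135 and 1196 CPM in knockout cells (-1.09 ± 0.08). miR-23b-3p, a regulator of glutaminase, was at 3486, 3385 and 3422 CPM with ERβ and at 5173, 5104 and 5071 CPM in knockout cells (-0.58 ± 0.06). miR-24-3p was at -0.39 ± 0.07. The groups did not overlap for these 3 and for 8 of the 14 in all, against 39.8% of all tested miRNAs.

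The remaining members of that list included miR-21-5p, an oncogenic miRNA and the most abundant of them, at -0.26 ± 0.14, and miR-107, at 0.10 ± 0.07, neither of which passed. miR-155-5p and miR-373-3p were too scarce to test, at 0 to 0.451 CPM in every library. The list's count depended on the libraries and the scaling. Without knockout library S2, 9 members were called lower and miR-107, like miR-210-3p itself, higher. Calls numbered 4, all lower, without ERβ library 1, 2 or 3 and likewise under upper-quartile scaling, and 3, all lower, when libraries were scaled by their totals. With the column number as a replicate block 2 were called, miR-23b-3p and miR-424-5p, both lower.

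The miRNAs listed here as acting on HIF or its regulators moved both ways. Of 12 listed, 11 were tested, and 3 were higher and 3 lower with ERβ, against 9.83% higher and 13.3% lower over all tested miRNAs (median log2 fold change 0.10 in the list). The lower ones were miR-424-5p, miR-20b-5p (-1.0 ± 0.08), which targets HIF1A, and miR-22-3p (-0.46 ± 0.07), also described as targeting HIF1A. The higher ones, named after their values were seen, were miR-18a-5p (0.67 ± 0.13), miR-17-5p (0.40 ± 0.11) and miR-20a-5p (0.34 ± 0.11), all of the miR-17/92a cluster, and of these miR-18a-5p alone was called without ERβ library 1, 2 or 3 and with the replicate block. miR-20b-5p had 286, 288 and 279 CPM with ERβ and 568, 603 and 538 CPM in knockout cells. miR-519c-3p had no count in any library. With the filter of 10 CPM in 3 libraries, 9 members were tested, 4 called higher and 3 lower. The list had 5 higher without knockout library S2, with miR-107 and the FIH-targeting miR-31-5p added, and shares 2 names with the hypoxia-induced list.

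Other miRNAs near MIR210 on chromosome 11 had few reads. Within 2 Mb of the hairpin the table lists 11 other mature miRNAs from 7 hairpins, of which 3 were abundant enough to test and 0 passed. They were miR-4686, at 2.61, 2.47 and 2.57 CPM with ERβ and 1.27, 0.579 and 2.03 CPM in knockout cells (log2 fold change 1.01 ± 0.36, edgeR quasi-likelihood test, adjusted p = 0.0710), miR-675-3p, processed from the imprinted H19 RNA (-0.48 ± 0.20), and miR-675-5p (-0.52 ± 0.26). At an unadjusted p under 0.05 there were 2, and limma-voom called 1 and DESeq2 0. The call was that of miR-4686, which was also called higher without a filter, with upper-quartile factors or library totals, and without knockout library 3. The highest value of any of the 11 in any library was 3.22 CPM, against at least 349.6 CPM for miR-210-3p.

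Epithelial identity of the libraries was checked on miR-200a-3p, miR-200b-3p, miR-200c-3p, miR-141-3p and miR-429, which were at 6850 CPM or more in every library. Together with the luminal markers miR-375-3p and miR-342-3p they summed to 79723 to 84522 CPM with ERβ and 82638 to 97511 CPM in knockout cells. Of these 7, 4 were lower with ERβ, miR-200c-3p, miR-141-3p, miR-375-3p and miR-342-3p, and 0 higher. Over all tested miRNAs 13.3% were lower and 9.83% higher. This holds for these 7 only. Outside them, miR-205-5p had 74040, 92851 and 89562 unscaled counts with ERβ and 50664, 48083 and 45071 in knockout cells. For miR-190b-5p these were 3094, 4049 and 4046 with ERβ and 3101, 3082 and 2884 in knockout cells. Of 12 markers of blood, endothelial, stromal, muscle, neural and liver cells 7 were abundant enough to test, of which 3, miR-126-3p, miR-143-3p and miR-1-3p, were lower and 0 higher, with a summed level of 13122 to 14289 CPM with ERβ and 16585 to 17011 CPM in knockout cells, nearly all of it the endothelial miR-126-3p, while miR-142-3p of blood cells stayed at 15.9 CPM or less. The neural miR-124-3p had 1 count in all libraries together and the erythroid miR-486-5p stayed under 0.744 CPM. The part of these differences in the results for miR-210 was not tested.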

How the data were processed

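Small RNA libraries were made with a QIAseq kit, per the labels' protocols; FastQC, Trim Galore and GRCh38 are named in the submitters' processing notes, and no source used here names the aligner, counter, annotation release or rule for shared reads. The deposited table holds the authors' expected counts per mature miRNA, not scaled between libraries. Columns were assigned by name; 2 knockout columns carry the number 1 and are known by group only. Counts were rounded, and the test was edgeR 4.0.16 in R 4.3.3 (default filterByExpr, TMM, robust quasi-likelihood test, Benjamini-Hochberg over 783 miRNAs at 0.05; all 6 libraries, no covariates); the tool was tested on simulated counts. Alternatives were other scalings and filters, DESeq2 1.42.0, limma-voom (limma 3.58.1), a replicate block and each library left out. Ratios were compared with exact permutation tests (scipy 1.17.1); figures used matplotlib 3.10.9. Named miRNAs were both arms, up to 3 members of each list by p, the 5 most alike, the 3 nearest in level on each side and the normalizers. Members and lists were chosen with earlier results of these data known. 3 counts correspond to 0.201 to 0.305 CPM.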

Additional observations from a re-analysis of the deposited data

How the results depend on the processing

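The log2 fold change of miR-210-3p was positive in all 14 alternatives, at 0.05 to 0.21 under the 8 other scalings, filters, tools and the block, none of which called it, and 0.013 to 0.14 with 1 library left out. Only leaving out knockout library S2 called it (0.14, adjusted p = 0.0377, range 0.0377 to 0.951). No pairing can be read from the numbers, since 2 knockout columns carry the same one. With the number as a replicate block miR-210-3p was at 0.05 (edgeR quasi-likelihood test, adjusted p = 0.857) and 88 miRNAs were called in place of 181. That block puts S1, S2 and ERβ library 1 together and leaves ERβ library 2 alone, where it adds nothing to the contrast. Results with the block are therefore no check of a pairing. With 1 library left out 111 to 279 were called, the most without knockout library S2 and the fewest without ERβ library 1 or 3. The split of 77 higher and 104 lower became 123 and 70 with upper-quartile factors and 146 and 61 with library totals; the cause was not tested.

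The 5p share difference, 0.000505 percentage points, turned to -0.0146 without knockout library 3, -0.000624 without ERβ library 2 and -0.00203 without ERβ library 3, and reached 0.0108 without S1; with 3 against 2 an exact p cannot go below 0.20. miR-210-5p, tested only without a filter, had an edgeR quasi-likelihood p of 0.958. The ratio to normalizers turned to -0.17 with miR-93-5p alone and kept its sign with the other normalizers and with each library left out (0.17 to 0.24). Under upper-quartile factors and library totals the median of the hypoxia-induced list was -0.14 and -0.087. That of the HIF-acting list was 0.21 and 0.26. These scalings moved all miRNAs, with a median of 0.099 and 0.14 over all tested miRNAs, against -0.01 with TMM factors. With 1 library left out the list medians ran from -0.29 to -0.20 and from 0.10 to 0.18. The median near the hairpin, -0.48, ran from -0.43 to 0.51, with 3 or 4 members tested. With 0 to 2 counts in a library, no change of miR-210-5p could be measured at this depth.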
